A study of Mus musculus with 6 samples.

Results

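The genes described here are 36 genes for lysosomal enzymes, lysosomal membrane proteins, subunits of the lysosomal proton pump and regulators of the lysosome, out of 18824 genes in the table. They were chosen by name from what their proteins do and comprise 11 proteases, 6 glycosidases, 6 genes of lipid handling, 6 membrane proteins, 5 proton pump genes and 2 regulators. Polyadenylated RNA was sequenced from whole skin of C57BL/6j mice in the MC903 model of atopic eczema, named after the calcitriol analogue that is painted on the skin. The CCR3 group has 3 libraries (replicates 1, 2 and 4) and the VEH group, given vehicle, has 3 libraries (replicates 1, 2 and 4). The compound is given in 2 ways: as SB328437, which blocks the chemokine receptor CCR3, in the series title, and as SC144, which blocks gp130, in the treatment label of the CCR3 libraries. The group names CCR3 and VEH, from the library titles, are used here for that reason. Dose, time, age and sex were not stated in the labels used here, both groups belong to the MC903 model, and skin without MC903 was not analysed here. No label ties a library to a mouse of its own, and the p-values therefore reflect the spread between these libraries, which may be technical.

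Lysosomes break down protein, sugar chains and lipids that reach them by endocytosis, phagocytosis and autophagy. Their hydrolases work in an acid lumen, which the V-ATPase proton pump maintains, and most soluble hydrolases are sent there by a mannose 6-phosphate tag. Macrophages are rich in lysosomes, and in the epidermis cathepsins and lipid hydrolases take part in the turnover of keratinocytes and in the making of the barrier.

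All 36 genes were detected well above the filter of 1 FPKM in 3 libraries. FPKM counts fragments relative to transcript length and to the number mapped, so levels can be set beside each other between genes. Averaged over the 6 libraries, Ctsb had the highest level at 1015 FPKM, followed by Ctsl at 976 FPKM, Cd63 at 583 FPKM, Ctsd at 547 FPKM and Psap at 526 FPKM. The lowest levels were those of Atp6v0d2 at 9.87 FPKM and Tfeb at 6.98 FPKM, and 16 of the 36 genes were above 100 FPKM. The values of Ctsb and Ctsl overlapped across libraries, as did those of Cd63, Ctsd and Psap. Differences in level between genes were not tested. The 36 genes together made up 1.28%, 1.14% and 1.45% of the FPKM sum in CCR3 replicates 1, 2 and 4, against 1.45%, 1.33% and 1.45% in VEH replicates 1, 2 and 4.

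**Figure D1:**
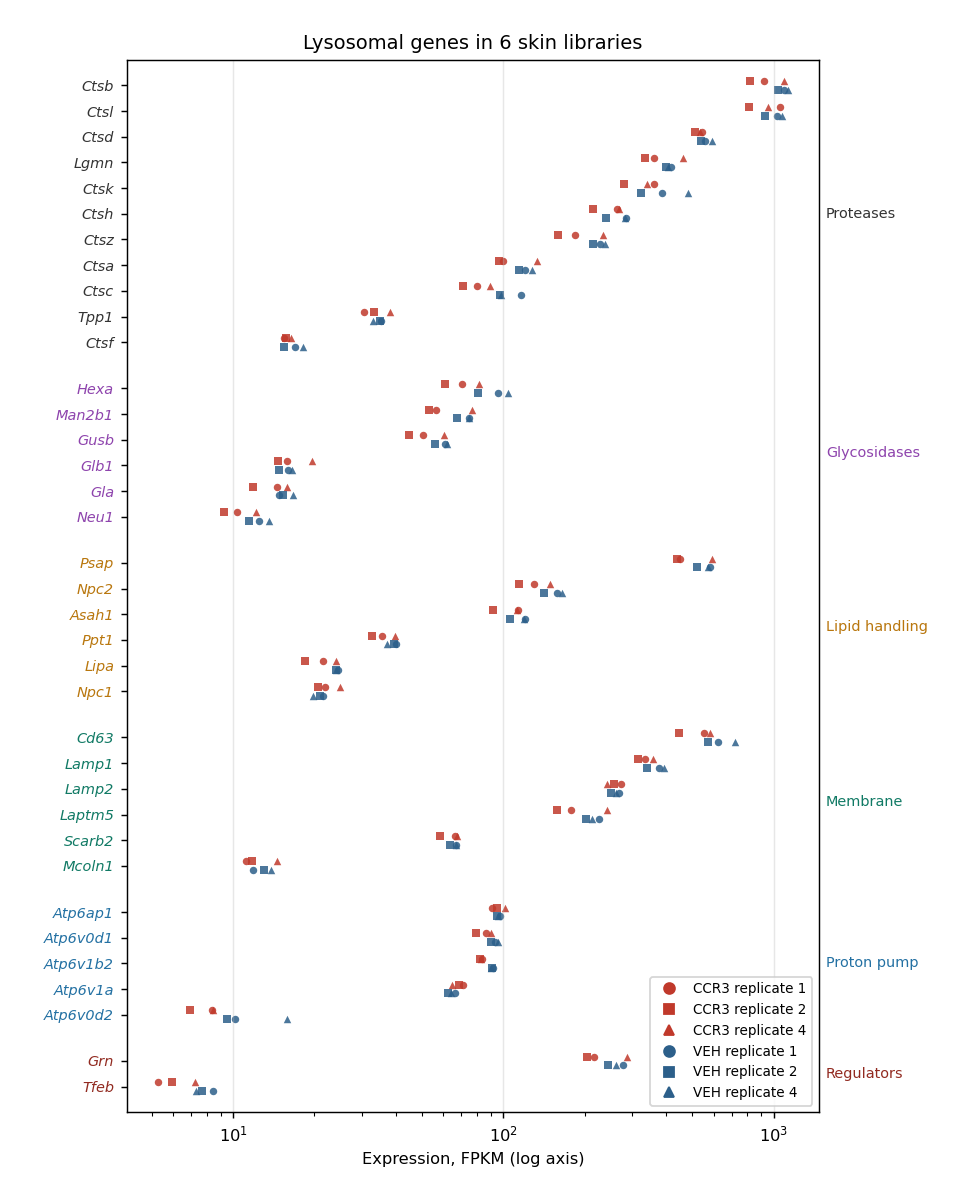
FPKM of the 36 genes in each library on a log axis, ordered by role, with CCR3 libraries in red and VEH libraries in blue. Levels run from about 7 FPKM for Tfeb to about 1015 FPKM for Ctsb, and the distance between genes is far larger than that between the groups.

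None of the 36 genes passed the test between CCR3 and VEH, in either direction. Of all 13063 genes tested with limma, 2.37% were called lower in CCR3 and 1.36% were called higher at an adjusted p of 0.05, which is 310 and 178 genes. With log values centred on each library's median these were 261 and 230 genes, and with libraries at equal FPKM sums 173 and 158. The lowest adjusted p among the 36 genes was 0.0921, for Ctsc. At an unadjusted p of 0.05 in limma, 6 of the 36 genes (16.7%) were lower in CCR3 and 0 were higher, while 15.1% of all genes tested were lower and 8.03% were higher. The 6 genes were Ctsc, Hexa, Atp6v0d2, Tfeb, Atp6v1b2 and Npc2, and their share was close to that of all genes. All 3 CCR3 libraries lay below all 3 VEH libraries for 5 genes (13.9%), against 18.3% of all genes. They lay above all 3 VEH libraries for 0 genes, against 10.4% of all genes.

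Differences were small and mostly negative. The log2 fold change, CCR3 over VEH on the log2(FPKM + 1) scale, was negative for 32 of the 36 genes (88.9%), against 59.8% of all genes, and positive for Glb1, Npc1, Atp6v1a and Atp6ap1. Its median was -0.14 over the 36 genes and -0.04 over all genes tested, and it ranged from -0.50 for Atp6v0d2 to 0.11 for Npc1. The 95% interval of the difference lay within 1 log2 unit in either direction, a 2-fold change, for all 36 genes. It lay within 0.5 log2 units, a 1.41-fold change, for 27 of them. The lowest lower bound was -0.90 for Atp6v0d2 and the highest upper bound was 0.32 for Glb1. In bulk skin, fewer cells of a type and less RNA per cell cannot be told apart.

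**Figure D2:**
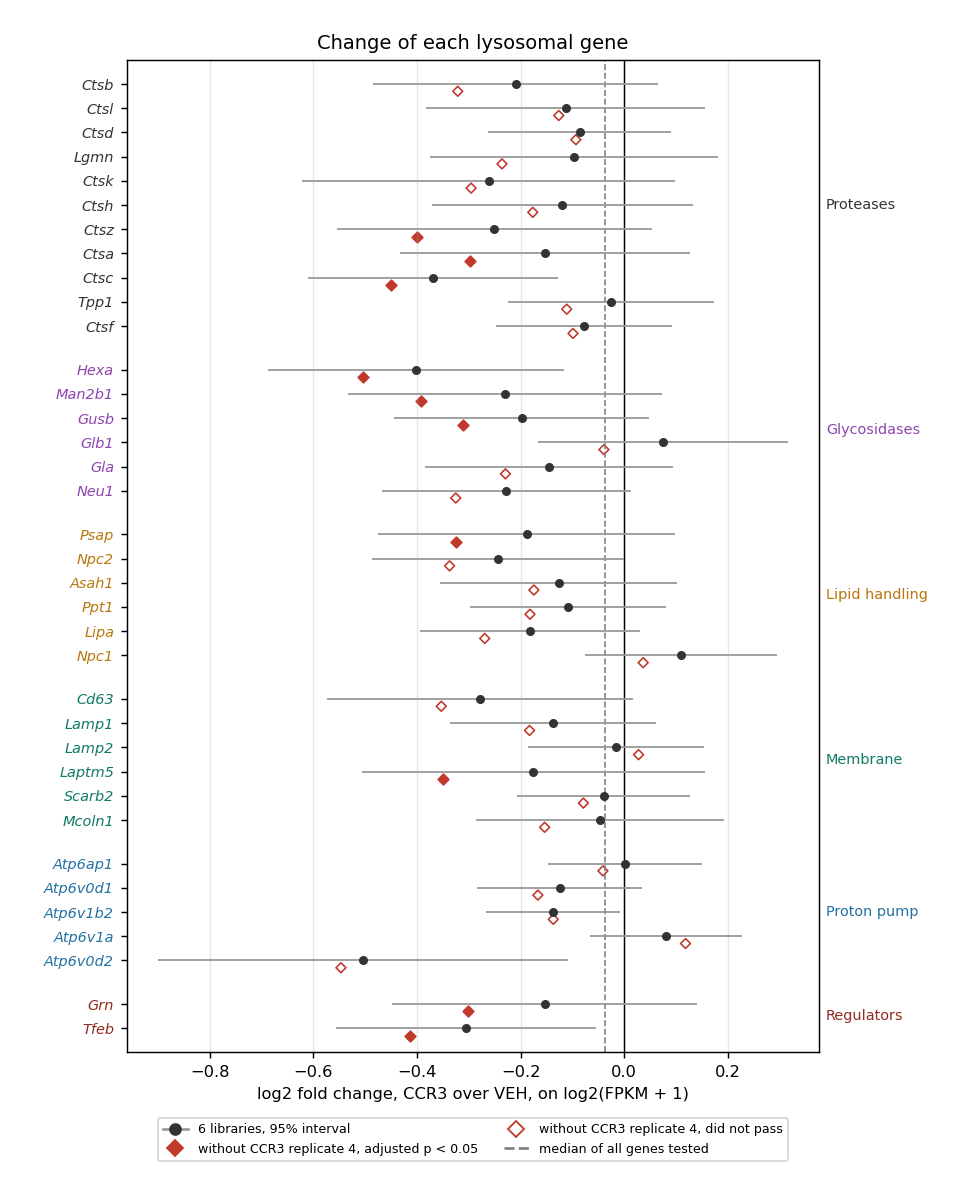
Log2 fold change of each gene, CCR3 over VEH on the log2(FPKM + 1) scale, with its 95% interval from limma, grouped by role. Circles, from all 6 libraries, lie between -0.50 and 0.11, 32 of 36 are below 0, and the intervals of 30 genes include 0. Red diamonds give the change without CCR3 replicate 4, filled where the adjusted p in limma was below 0.05. The diamonds run from -0.55 for Atp6v0d2 to 0.12 for Atp6v1a. A dashed line marks the median of all genes tested.

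The 3 CCR3 libraries differed among themselves in these genes. Replicate 2 was the lowest of the 3 CCR3 libraries for 29 of the 36 genes and replicate 4 was the highest for 29, whereas over all 13063 genes these counts were 4440 and 5251. Averaged over the 36 genes, log2(FPKM + 1) stood -0.16, -0.29 and 0.00 from the VEH mean in CCR3 replicates 1, 2 and 4, against 0.02, -0.08 and 0.06 in VEH replicates 1, 2 and 4. CCR3 replicates 1 and 2 were therefore below every VEH library, and CCR3 replicate 4 was inside the VEH range. The SD between libraries was larger in CCR3 than in VEH for 30 of the 36 genes (83.3%), against 63.5% of all genes, with a median SD of 0.185 in CCR3 and 0.0831 in VEH over the 36 genes on the log2 scale.

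The outcome of the test depended on CCR3 replicate 4. For 29 of the 36 genes that library held the highest CCR3 value, so leaving it out lowers their CCR3 mean. Only CCR3 replicates 1 and 2 then remain, and the calls that follow are no separate support for a fall. Without CCR3 replicate 4, limma called 10 of the 36 genes (27.8%) lower in CCR3 and 0 higher. Of 12985 genes tested, 8.37% were called lower and 4.24% higher. The 10 genes were Man2b1, Ctsz, Tfeb, Ctsc, Hexa, Laptm5, Ctsa, Gusb, Psap and Grn, with log2 fold changes between -0.50 for Hexa and -0.30 for Ctsa and Grn, and adjusted p between 0.0179 for Man2b1 and 0.0434 for Grn. The median over the 36 genes was -0.23 without CCR3 replicate 4 and -0.07 without CCR3 replicate 2. With any other single library left out, 0 of the 36 genes were called. Calls over all genes also fell short of the 1087 lower and 551 higher found without CCR3 replicate 4. Without CCR3 replicate 1 or 2, 81 and 175 genes were called lower and 57 and 143 higher. Without VEH replicate 1, 2 or 4, 39, 64 and 45 were called lower and 35, 51 and 29 higher. No label sets CCR3 replicate 4 apart from the other CCR3 libraries.

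Among the regulators, Tfeb encodes a transcription factor that switches on lysosomal genes when it enters the nucleus, and Grn encodes progranulin, a secreted protein that reaches the lysosome and is cut into granulins there. Tfeb had 5.28, 5.94 and 7.25 FPKM in CCR3 replicates 1, 2 and 4, against 8.44, 7.69 and 7.27 FPKM in VEH replicates 1, 2 and 4. The groups did not overlap, but the highest CCR3 library and the lowest VEH library were almost equal. The log2 fold change of Tfeb was -0.31 ± 0.109 (SE, n = 3 each), with an adjusted p of 0.149 in limma. Grn had 216, 205 and 287 FPKM in CCR3 replicates 1, 2 and 4, against 276, 244 and 260 FPKM in VEH replicates 1, 2 and 4. Its highest and its lowest value were both in CCR3 libraries, and its log2 fold change was -0.15 with an adjusted p of 0.496 in limma.

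TFEB binds the CLEAR element, whose core holds the letters TCACGTGA. Promoter windows of 300 bases, from 250 bases before to 50 bases after the start of the gene, were taken from RefSeq (GRCm38.p6) for 30 of the 36 genes. TCACGTGA, which reads the same on both strands, was found in 6 of the 30 (20.0%), against 1.12% of 27025 genes. The shorter TCACGTG, read on both strands, was found in 9 of the 30 (30%), against 4.29% of all genes, and CACGTG in 11 of the 30 (36.7%), against 8.09%. The longer motifs contain the shorter ones, so these counts overlap. The 36 genes were chosen as lysosomal genes, the kind that TFEB switches on. A share above that of all genes thus follows from the choice and is no finding of these data. A stretch around the motif is shown for each of the 6 genes that hold TCACGTGA, because these are the windows with the full letters, and capitals mark the motif.
Ctsa, GRCm38.p6 chr2:164833734-164833793, plus strand: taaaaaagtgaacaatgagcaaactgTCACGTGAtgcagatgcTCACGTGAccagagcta
Ctsd, GRCm38.p6 chr7:142387893-142387952, minus strand: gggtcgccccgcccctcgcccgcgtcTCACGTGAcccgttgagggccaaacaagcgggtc
Gla, GRCm38.p6 chrX:134601167-134601226, minus strand: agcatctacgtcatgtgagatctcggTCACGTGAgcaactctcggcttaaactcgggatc
Mcoln1, GRCm38.p6 chr8:3500447-3500506, plus strand: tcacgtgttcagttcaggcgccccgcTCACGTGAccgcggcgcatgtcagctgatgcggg
Atp6v0d1, GRCm38.p6 chr8:105566035-105566094, minus strand: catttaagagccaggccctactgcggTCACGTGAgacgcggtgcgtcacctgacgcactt
Atp6v1a, GRCm38.p6 chr16:44139358-44139417, minus strand: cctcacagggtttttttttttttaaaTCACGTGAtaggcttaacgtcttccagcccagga
The 6 genes with TCACGTGA come from the proteases, the glycosidases, the membrane proteins and the proton pump. Their median log2 fold change was -0.11, against -0.18 for the 24 genes whose window lacks it, a difference that was not tested. None of the 36 genes passed the test between CCR3 and VEH, so calls cannot tell these sets apart.

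The 11 proteases were all lower on average in CCR3, except for Tpp1 when libraries were rescaled, with a median log2 fold change of -0.12, and 0 of 11 passed the test. Ctsc, dipeptidyl peptidase I, which activates granzymes and the serine proteases of neutrophils and mast cells, had the lowest p. It had 80.0, 70.8 and 89.1 FPKM in CCR3 replicates 1, 2 and 4, against 115.9, 96.97 and 97.64 FPKM in VEH replicates 1, 2 and 4. All CCR3 libraries were below all VEH libraries, and the log2 fold change was -0.37 ± 0.105 (SE, n = 3 each) with an adjusted p of 0.0921 in limma. Ctsb, a cysteine protease with both endopeptidase and peptidyl-dipeptidase activity, had 922.4, 817 and 1095 FPKM in CCR3 replicates 1, 2 and 4, against 1092, 1037 and 1127 FPKM in VEH replicates 1, 2 and 4. CCR3 replicate 4 reached the VEH range and the other CCR3 libraries stayed below it, with a log2 fold change of -0.21 and an adjusted p of 0.323 in limma.

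Among the other cysteine proteases, Ctsl, an endopeptidase needed for hair cycling and epidermal turnover in mice, averaged 939 ± 120.0 FPKM in CCR3 and 1012 ± 72.0 FPKM in VEH (n = 3 each, ± SD). Ctsk, which cleaves collagen and is best known from osteoclasts, averaged 328 ± 43.0 FPKM in CCR3 and 396 ± 80.2 FPKM in VEH. Ctsz, a carboxypeptidase, averaged 192 ± 38.1 FPKM in CCR3 and 226 ± 12.01 FPKM in VEH. For all 3 genes the groups overlapped. Ctsh, an aminopeptidase, averaged 248 ± 29.1 FPKM in CCR3 and 269 ± 24.8 FPKM in VEH. Ctsf, another cysteine cathepsin, averaged 15.8 ± 0.452 FPKM in CCR3 and 16.8 ± 1.38 FPKM in VEH. Lgmn, an asparaginyl endopeptidase that processes cathepsins, averaged 385 ± 68.1 FPKM in CCR3 and 408 ± 9.46 FPKM in VEH. The SD of Lgmn in CCR3 was wider than the distance between its means.

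Of the proteases with other catalytic sites, Ctsd, the main aspartic protease of the lysosome, averaged 531 ± 15.5 FPKM in CCR3 and 564 ± 27.2 FPKM in VEH. Ctsa, a serine carboxypeptidase that also shields NEU1 and beta-galactosidase from breakdown, averaged 110 ± 20.1 FPKM in CCR3 and 121 ± 7 FPKM in VEH. Tpp1, a serine tripeptidyl peptidase, averaged 33.9 ± 3.91 FPKM in CCR3 and 34.4 ± 1.24 FPKM in VEH. Tpp1 had the smallest fold change of the proteases at -0.03, and its sign turned when libraries were rescaled, to 0.0052 with log values centred on each library's median.

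The 6 glycosidases, which strip sugars from glycoproteins and glycolipids, had a median log2 fold change of -0.21, with 5 negative and 0 past the test. Hexa, the alpha subunit of beta-hexosaminidase, which degrades the ganglioside GM2, had both the highest level and the most negative change. It had 70.1, 60.6 and 81.0 FPKM in CCR3 replicates 1, 2 and 4, against 95.2, 80.9 and 104.1 FPKM in VEH replicates 1, 2 and 4. The groups overlapped only through the near-equal values of CCR3 replicate 4 and VEH replicate 2, and the log2 fold change was -0.40 ± 0.124 (SE, n = 3 each) with an adjusted p of 0.113 in limma. Glb1, beta-galactosidase, had 15.8, 14.7 and 19.6 FPKM in CCR3 replicates 1, 2 and 4, against 15.9, 14.8 and 16.5 FPKM in VEH replicates 1, 2 and 4. Replicates 1 and 2 were level between the groups and CCR3 replicate 4 was the highest library. Its log2 fold change was 0.07, and it was negative when CCR3 replicate 4 was left out, at -0.04.

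The other 4 glycosidases had overlapping groups. Man2b1, an alpha-mannosidase, averaged 62.1 ± 12.9 FPKM in CCR3 and 72.1 ± 4.34 FPKM in VEH (n = 3 each, ± SD). Gusb, beta-glucuronidase, averaged 51.9 ± 7.89 FPKM in CCR3 and 59.3 ± 3.24 FPKM in VEH. Neu1, the lysosomal sialidase, averaged 10.6 ± 1.49 FPKM in CCR3 and 12.5 ± 1.04 FPKM in VEH. Gla, alpha-galactosidase A, averaged 14.1 ± 2.03 FPKM in CCR3 and 15.6 ± 0.969 FPKM in VEH. In all 6 glycosidases CCR3 replicate 2 was the lowest of the 6 libraries.

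In lipid handling, 5 of 6 genes were negative, with a median log2 fold change of -0.15, and 0 passed the test. Npc1 and Npc2 act in sequence to move cholesterol out of the lysosome, NPC2 in the lumen and NPC1 in the membrane, and their differences had opposite signs. Npc2 had 130.4, 114 and 148 FPKM in CCR3 replicates 1, 2 and 4, against 157, 142 and 165 FPKM in VEH replicates 1, 2 and 4. Only CCR3 replicate 4 overlapped the VEH range, and the log2 fold change was -0.24 ± 0.105 (SE, n = 3 each) with an adjusted p of 0.215 in limma. Npc1 had 21.9, 20.6 and 24.9 FPKM in CCR3 replicates 1, 2 and 4, against 21.46, 20.96 and 19.71 FPKM in VEH replicates 1, 2 and 4. The groups overlapped, and the log2 fold change of 0.11 had an adjusted p of 0.442 in limma. The difference between the changes of Npc1 and Npc2 was not tested.

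Psap, the precursor of the saposins that present glycolipids to hydrolases, had 449.7, 439.5 and 591 FPKM in CCR3 replicates 1, 2 and 4, against 581, 519 and 574 FPKM in VEH replicates 1, 2 and 4. CCR3 replicate 4 was the highest of the 6 libraries, and CCR3 replicates 1 and 2 were below every VEH library. Its log2 fold change was -0.19 with an adjusted p of 0.391 in limma. Lipa, the acid lipase for cholesteryl esters and triglycerides, averaged 21.3 ± 2.80 FPKM in CCR3 and 24.2 ± 0.211 FPKM in VEH (n = 3 each, ± SD), and its groups were separated by a gap of only 24.03 against 24.05 FPKM. Asah1, acid ceramidase, averaged 106 ± 12.4 FPKM in CCR3 and 115 ± 8.15 FPKM in VEH. Ppt1, which removes fatty acids from cysteines, averaged 36.04 ± 3.65 FPKM in CCR3 and 38.8 ± 1.64 FPKM in VEH. The groups of Asah1 and Ppt1 overlapped.

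All 6 membrane proteins had negative log2 fold changes, except for Lamp2 when libraries were rescaled, with a median of -0.09, and 0 passed the test. Cd63, a tetraspanin of late endosomes, lysosomes and secretory granules, had both the highest level and the most negative change. It had 553, 448 and 581 FPKM in CCR3 replicates 1, 2 and 4, against 624, 569.7 and 722 FPKM in VEH replicates 1, 2 and 4. CCR3 replicate 4 just overlapped VEH replicate 2, and the log2 fold change was -0.28 ± 0.128 (SE, n = 3 each) with an adjusted p of 0.235 in limma. Lamp1 and Lamp2 encode the abundant glycoproteins that coat the inner face of the lysosomal membrane. Lamp1 averaged 335 ± 21.3 FPKM in CCR3 and 369 ± 27.2 FPKM in VEH. Lamp2 averaged 257 ± 15.4 FPKM in CCR3 and 259.8 ± 8.85 FPKM in VEH, with a log2 fold change of -0.02 that turned to 0.02 with log values centred on each library's median.

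Laptm5, a lysosomal transmembrane protein of blood cells, averaged 192 ± 43.4 FPKM in CCR3 and 214 ± 11.4 FPKM in VEH (n = 3 each, ± SD). The CCR3 values of Laptm5, 178, 158 and 241 FPKM in replicates 1, 2 and 4, lay on both sides of the VEH values of 226, 203 and 214 FPKM in replicates 1, 2 and 4. Scarb2, also called LIMP-2, which carries beta-glucocerebrosidase to the lysosome, averaged 64.0 ± 4.96 FPKM in CCR3 and 65.7 ± 1.88 FPKM in VEH. Mcoln1, a channel that releases calcium from the lysosome, averaged 12.5 ± 1.80 FPKM in CCR3 and 12.9 ± 0.992 FPKM in VEH. The means of Scarb2 and Mcoln1 differed by less than the SD of either gene in CCR3.

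The proton pump genes did not share a direction: 3 of 5 were negative, with a median log2 fold change of -0.12, and 0 passed the test. Atp6v0d2, a d subunit of the membrane sector with a narrow range of tissues that includes osteoclasts and macrophages, had the most negative change of all 36 genes, a rank that rested on VEH replicate 4. It had 8.35, 6.91 and 8.40 FPKM in CCR3 replicates 1, 2 and 4, against 10.2, 9.50 and 15.9 FPKM in VEH replicates 1, 2 and 4. The groups did not overlap and VEH replicate 4 stood above all other libraries. The log2 fold change was -0.50 ± 0.172 (SE, n = 3 each) with an adjusted p of 0.139 in limma, and it was -0.29 without VEH replicate 4, when Ctsc at -0.41, Tfeb at -0.35 and Hexa at -0.32 were more negative. Its widely expressed paralogue Atp6v0d1 had 85.9, 79.3 and 90.3 FPKM in CCR3 replicates 1, 2 and 4, against 93, 89.9 and 95.5 FPKM in VEH replicates 1, 2 and 4. CCR3 replicate 4 overlapped VEH replicate 2, and the log2 fold change was -0.12 with an adjusted p of 0.314 in limma. Atp6v0d2 stood at 9.72%, 8.71% and 9.31% of Atp6v0d1 in CCR3 replicates 1, 2 and 4, against 10.96%, 10.6% and 16.6% in VEH replicates 1, 2 and 4.

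Atp6v1b2, the B subunit of the cytoplasmic sector found in most tissues, averaged 82.5 ± 0.911 FPKM in CCR3 and 90.9 ± 1.05 FPKM in VEH (n = 3 each, ± SD). The groups did not overlap, and the log2 fold change was -0.14 ± 0.0559 (SE) with an adjusted p of 0.192 in limma. Atp6v1a, the catalytic A subunit that pairs with it, had 70.8, 68.8 and 64.4 FPKM in CCR3 replicates 1, 2 and 4, against 66.2, 62.3 and 64.2 FPKM in VEH replicates 1, 2 and 4. Its groups overlapped and its log2 fold change was 0.08, with an adjusted p of 0.474 in limma. Atp6ap1, an accessory protein for assembly of the pump, had 90.8, 95.1 and 101.5 FPKM in CCR3 replicates 1, 2 and 4, against 96.99, 94.66 and 95.3 FPKM in VEH replicates 1, 2 and 4. Its group means were nearly equal, with 95.8 ± 5.37 FPKM over the CCR3 libraries and 95.7 ± 1.20 FPKM over the VEH libraries, with a log2 fold change of 0.00 and an adjusted p of 0.996 in limma.

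The rest of the pathway was read from lists of 143 further genes for lysosomal proteins, mannose 6-phosphate sorting, control of lysosomal genes by MiT factors and mTORC1, autophagy and inhibitors of cathepsins, of which 138 were tested. Of these, 1 was called higher and 1 lower in CCR3, while 1.36% of all genes were called higher and 2.37% lower. The log2 fold change was negative for 98 of the 138 (71.0%), against 59.8% of all genes, with a median of -0.09. Among them, 79 of 82 other lysosomal enzymes and membrane proteins were tested, with 0 called higher and 1 called lower. Of these 79 genes 60 were negative (75.9%), with a median of -0.10. The gene called lower was Ctsw, a cathepsin of cytotoxic lymphocytes, with 1.02, 1.48 and 1.69 FPKM in CCR3 replicates 1, 2 and 4, against 2.76, 2.25 and 2.92 FPKM in VEH replicates 1, 2 and 4. Its groups did not overlap, and its log2 fold change was -0.61 with an adjusted p of 0.0417 in limma. The call of Ctsw was lost without CCR3 replicate 1, CCR3 replicate 2, VEH replicate 1, VEH replicate 2 or VEH replicate 4, with adjusted p between 0.0611 and 0.167 in limma. It was also lost with libraries at equal FPKM sums, at an adjusted p of 0.0553, and with no filter on low values, at 0.0856, and a filter of 3 FPKM leaves Ctsw out of the test.

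The gene called higher was Ddit4, which encodes REDD1, a stress-induced inhibitor of mTORC1. Ddit4 had 104.9, 114 and 141 FPKM in CCR3 replicates 1, 2 and 4, against 55.7, 58.1 and 55.9 FPKM in VEH replicates 1, 2 and 4. Every CCR3 library was well above every VEH library, with a log2 fold change of 1.06 and an adjusted p of 0.0036 in limma, and the call held with each library left out in turn. Without CCR3 replicate 4, 13 of the 138 genes were called, 11 of them (7.97%) lower in CCR3 and 2 (1.45%) higher (Ddit4 and Ulk1). The share called lower was close to the 8.37% of all genes, and the share called higher was below the 4.24% of all genes.

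In the lists with no gene past the test, the 2 genes with the lowest p are given as log2 fold changes. Among other glycosidases and sulfatases these were Idua at -0.21 and Fuca1 at -0.20, and among other lipid hydrolases, phosphatases and nucleases Pla2g15, a phospholipase, at -0.39 and Pld4 at -0.41. Among other membrane proteins and transporters they were Slc15a3, a peptide and histidine transporter, at -0.47 and Slc29a3, a nucleoside transporter, at -0.26. Other proton pump subunits gave Atp6v1g2 at -0.32 and Atp6v0a4 at 0.23. Gnptab, which makes the mannose 6-phosphate tag, had 0.21, and Gga3, an adaptor that sorts tagged cargo, had -0.23. The autophagy kinase Ulk1 had 0.24 and Atg5 had -0.19. Among cathepsin inhibitors, Cst7 had -0.37 and Stfa1 had 0.39, but Stfa1 has near-identical copies among which short reads can be split, so its value is uncertain. None of these passed the test, and their adjusted p in limma ran from 0.0824 upward.

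Markers of some cell types had the same order of CCR3 libraries as the lysosomal genes, and others did not. The 14 macrophage and monocyte markers stood on average -0.15, -0.23 and 0.13 log2 units from the VEH mean in CCR3 replicates 1, 2 and 4, against 0.05, -0.05 and 0.00 in VEH replicates 1, 2 and 4. Their summed level ranged from 2642 to 3343 FPKM in CCR3 and from 3104 to 3669 FPKM in VEH. CCR3 replicate 2 was lowest and CCR3 replicate 4 highest among the CCR3 libraries, the same order as for the 36 genes. Of the 14 markers 10 were negative and 0 were called lower, while Mertk, a receptor for apoptotic cells, was called higher with a log2 fold change of 0.52 and an adjusted p of 0.0379 in limma. The call of Mertk was lost without CCR3 replicate 1, VEH replicate 1, VEH replicate 2 or VEH replicate 4, with adjusted p between 0.0984 and 0.135 in limma, and with no filter on low values, at 0.0849.

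The 10 keratinocyte markers ran the other way, at 0.14, 0.76 and -0.18 in CCR3 replicates 1, 2 and 4, against 0.00, 0.04 and -0.04 in VEH replicates 1, 2 and 4. Their summed level ranged from 6214 to 9807 FPKM in CCR3 and from 6413 to 7381 FPKM in VEH, and 0 of 10 passed the test. The 6 fibroblast markers stood at -0.08, -0.34 and 0.03 in CCR3 replicates 1, 2 and 4, against 0.04, -0.09 and 0.05 in VEH replicates 1, 2 and 4, with summed levels from 3295 to 4036 FPKM in CCR3 and from 3767 to 4270.2 FPKM in VEH. Keratinocyte, fibroblast and macrophage markers were all abundant, as in skin. CCR3 replicate 2 thus had the highest keratinocyte markers and the lowest fibroblast and macrophage markers of the 6 libraries.

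Neutrophil markers stood at 0.06, -0.10 and 0.44 in CCR3 replicates 1, 2 and 4, against -0.10, 0.17 and -0.07 in VEH replicates 1, 2 and 4, with 6 of 9 tested, 0 called and the granule genes Mpo and Elane near 0. Their summed level ranged from 2790.4 to 4077 FPKM in CCR3 and from 2489.8 to 3315 FPKM in VEH. Most of that sum came from S100a8 and S100a9, at 2277 and 1646 FPKM in CCR3 replicate 4. Of the 6 tested, 4 had positive log2 fold changes, S100a8 at 0.25 and S100a9 at 0.24 among them. The receptor genes Csf3r and Cxcr2 were negative, at -0.39 and -0.12. Mast cell markers stood at -0.24, -0.49 and -0.28 in CCR3 replicates 1, 2 and 4, against 0.02, -0.22 and 0.20 in VEH replicates 1, 2 and 4, with summed levels from 538 to 615 FPKM in CCR3 and from 609.9 to 843 FPKM in VEH. Of 9 mast cell markers 1 was called lower, Mrgprb2, a receptor of connective tissue mast cells, with a log2 fold change of -0.50 and an adjusted p of 0.0232 in limma. T cell markers stood at -0.59, -0.47 and -0.22 in CCR3 replicates 1, 2 and 4, against 0.07, -0.01 and -0.06 in VEH replicates 1, 2 and 4, with summed levels from 39.8 to 53.7 FPKM in CCR3 and from 59.3 to 65.2 FPKM in VEH. Of 7 T cell markers 3 were called lower, the T cell receptor component Cd3g at a log2 fold change of -0.58, the co-receptor Cd4 at -0.66 and the costimulatory receptor Cd28 at -0.55. Of 6 endothelial markers 1 was called lower, Kdr, a receptor for VEGF, at -0.47. Endothelial markers stood at -0.19, -0.34 and 0.11 in CCR3 and at -0.04, 0.07 and -0.03 in VEH, in replicates 1, 2 and 4. The 5 tested giant cell and osteoclast markers stood at -0.13, -0.36 and 0.18 in CCR3 and -0.04, -0.10 and 0.14 in VEH. The 6 melanocyte markers stood at -0.02, -0.12 and -0.18 in CCR3 and -0.08, -0.11 and 0.19 in VEH. In these last lists 0 were called. Each of these 5 calls (Mrgprb2, Cd3g, Cd4, Cd28 and Kdr) was lost without VEH replicate 1 and without VEH replicate 4. Without CCR3 replicate 1 the calls of Mrgprb2, Cd3g, Cd4 and Kdr were lost, without CCR3 replicate 2 those of Cd4, Cd28 and Kdr, and without VEH replicate 2 all but that of Cd4, with adjusted p in limma between 0.0539 and 0.184. With no filter on low values the calls of Cd4, Cd28 and Kdr were lost, with libraries at equal FPKM sums those of Cd4 and Kdr, and with log values centred on each library's median that of Kdr, with adjusted p in limma between 0.0501 and 0.104. Mrgprb2 was at 1.28 to 1.5 FPKM in CCR3 and 2.17 to 2.6 FPKM in VEH. Cd28 was at 1.29 to 1.77 FPKM in CCR3 and 2.33 to 2.79 FPKM in VEH. A filter of 3 FPKM leaves Mrgprb2 and Cd28 out of the test. The part of these cell types in the levels of the lysosomal genes was not tested.

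**Figure D3:**
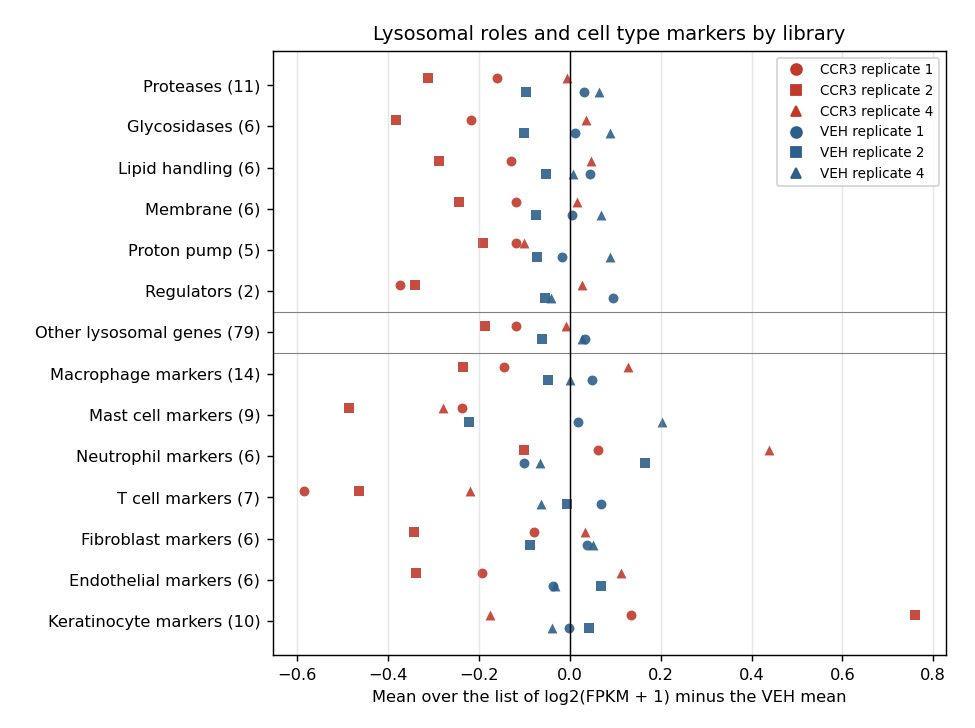
Mean over each list of log2(FPKM + 1) minus the VEH mean, for each library, with the number of genes in brackets. CCR3 libraries are red and VEH libraries blue, with a circle, square and triangle for replicates 1, 2 and 4. In the 6 lysosomal roles CCR3 replicate 4 is to the right of CCR3 replicate 2, at 0.04 against -0.38 for the glycosidases, and the keratinocyte markers of CCR3 replicate 2 stand at 0.76.

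Some of the 36 genes share exon sequence with a neighbour, and no strand information is given, so their reads cannot be told apart. In GENCODE M21, 11 of the 36 genes overlap exons of another gene, 9 of them on the opposite strand. For 3 genes the neighbour on the opposite strand was at 20 FPKM or more: Ctsa overlaps Pltp at 109 FPKM, Ctsb overlaps Fdft1 at 29.9 FPKM, and Ppt1 overlaps Cap1 at 128 FPKM. Ctsl also overlaps a processed pseudogene on its own strand.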

How the data were processed

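RNA was extracted in Trizol, purified on oligo(dT) beads, reverse transcribed from random hexamers and sequenced on DNA nanoballs, per the labels' protocols. Per the submitters' processing notes, reads were aligned with HISAT. For the build, the annotation, the counting tool and the version of HISAT, the entry is: not given in the sources used here. The authors deposited FPKM per gene and library, with no counts, so depth is unknown. Of 3955 low values, 6.30% were within 0.05 of a whole multiple of the lowest value of their gene, against 10% by chance. Each value is scaled by the number mapped in its own library, so the check could not decide whether whole reads are recoverable. With no counts given, a count test was not run. FPKM summed to 517764 to 553305 per library, and no 2 libraries held identical values.

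Libraries were grouped by title. A gene was tested where 3 or more libraries reached 1 FPKM (13063 tested, 5761 left out), and log2(FPKM + 1) was compared with limma 3.58.1 in R 4.3.3 (variance trend, no block, two-sided, Benjamini-Hochberg over all tested genes, threshold 0.05). Fold changes on this scale understate the change of low genes. In data simulated for the comparison of CCR3 with VEH on 13063 genes, 76.7% of genes changed by 0.5 log2 units and 98.8% of those changed by 1 were recovered, and 5.99% of calls were of unchanged genes. The simulation drew each gene independently, with the same spread in both groups. The 36 genes had a median SD of 0.185 in CCR3 and 0.0831 in VEH, against 0.107 and 0.0794 over all genes. The simulated recovery therefore cannot be carried over to the 36 genes.

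The 36 genes and all lists were chosen with earlier results of these data known. The naming rule gave values in every library to genes past the threshold, to the gene of each role with the highest level, the largest rise and the largest fall, and to Tfeb, Atp6v0d1 and Atp6v0d2. From other lists it took up to 4 genes past the threshold, or the 2 with the lowest p. Marker lists with no call are given by counts and levels only. The exceptions are S100a8, S100a9, Csf3r and Cxcr2, named after their values were seen. Laptm5 was given in every library after its values were seen. Promoter windows are from RefSeq (GRCm38.p6), and exon overlaps from GENCODE M21. Alternatives were 2 scalings, 2 filters, another pseudocount, no variance trend, a replicate block, and each library left out in turn.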

Additional observations from a re-analysis of the deposited data

How the results depend on the processing

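The 36 genes gave 0 calls under every scaling, filter, pseudocount and variance model tried; with the replicate number as a block, 1 gene (Hexa) was called lower, with an adjusted p of 0.0494 in limma, and with 1 library left out 0 to 10 were. Over all tested genes, deviations from the group means of same-numbered libraries correlated at -0.06, 0.08 and -0.03 for numbers 1, 2 and 4. With 3 libraries a group, these values cannot show whether the numbers pair the libraries. Averaged over the 36 genes, replicate 2 was the lowest and replicate 4 the highest in both groups. The median log2 fold change of the 36 genes lay between -0.23 and -0.07 with 1 library left out and was -0.11 under both scalings. Over all genes, 178 were called higher and 310 lower, against 90 and 130 with no filter, 158 and 173 at equal FPKM sums, 89 and 144 with the block, and 29 to 551 and 39 to 1087 with 1 library left out. The 2 calls among the further pathway genes were Ctsw and the mTORC1 inhibitor Ddit4. They became 1 with no filter, 1 with a filter of 3 FPKM, 1 at equal FPKM sums and 1 with the block. With 1 library left out there were 1 to 13 calls. Ddit4 was called under all 13 alternatives, so where 1 call remained it was that of Ddit4. With the block, the calls of Ctsw, Mrgprb2, Cd3g, Cd28 and Kdr were lost, with adjusted p in limma between 0.0502 and 0.106. Signs turned for genes near 0: Tpp1 (0.0052 centred on medians, 0.0066 at equal FPKM sums, -0.11 to 0.0468 with 1 library left out) and Lamp2 (0.0153, 0.0175, and -0.0584 to 0.0278), and, with 1 library left out, Lgmn (-0.24 to 7.66e-07), Glb1 (-0.0392 to 0.16), Scarb2 (-0.0788 to 0.0247), Mcoln1 (-0.15 to 0.0234) and Atp6ap1 (-0.0411 to 0.0381). The cause was not tested. With 3 libraries a group and unknown depth, the comparison limits the change of each gene only to its interval.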
